A study of Mus musculus with 2 samples.

Results

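Cells of mouse pancreatic tumors were selected by a rule for Ccr2 Vcan inflammatory monocytes, and 580 of 14022 cells met the rule. They are called gated monocytes below, although the rule summed several genes and required neither Ccr2 nor Vcan by itself. The cells were chosen by transcript content. A cell was kept when Vcan, F13a1, Ccr2 and Ms4a6c together made up at least 0.1% of its unique molecular identifiers (UMIs, each standing for 1 captured transcript). It also had to hold less than 0.1% C1qa, C1qb and C1qc, less than 1% H2-Aa, H2-Ab1 and H2-Eb1, less than 1% Camp, Ngp, Ltf and Elane, less than 5% S100a8 and S100a9, and at most 1 UMI of Cd3e, Cd3g and Cd79a. These limits were set to leave out macrophages, dendritic cells, neutrophil precursors, neutrophils and lymphocytes. The PBS library gave 242 gated monocytes and the cmExoaCD11b library 338.

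The samples came from male C57BL/6J mice, 5 to 6 weeks old, that bore orthotopic K210 tumors, grown from pancreatic tumor cells of an engineered mouse that carried Trp53 fl/fl, Pdx1-Cre and a further allele not reported here. The mice were dosed by intraperitoneal injection every 3 days from day 7. One group was given PBS, the buffer alone, and the other cmExoaCD11b, exosomes of mouse embryonic fibroblasts loaded with IL-12 mRNA and with 2'3'-cGAMP (5 µg per mouse), and coated with an antibody to CD11b. Cells of 3 mice per treatment were taken 48 h after treatment, pooled and run as a single library. A single library stood for each treatment, so no difference between the treatments has a replicate check, no test was made, and every interval given here covers counting error only. Effects of the treatment cannot be told apart from effects of the pool or of the library.

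Classical monocytes leave the bone marrow through the chemokine receptor CCR2, circulate with high Ly6C on their surface, and enter inflamed tissue and tumors. There they mature into macrophages and monocyte-derived dendritic cells, losing Ly6C as they do so. 2'3'-cGAMP is the second messenger of the DNA sensor cGAS. It binds STING, which through TBK1 and IRF3 turns on the gene of interferon-beta. Secreted interferon then acts through its receptor and a factor that contains STAT2 and IRF9 on a shared promoter element, the interferon-stimulated response element (ISRE), and so raises a common set of antiviral genes.

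The ISRE core, GAAANNGAA, was searched on both strands of the 250 bases before each gene start in the RefSeq promoters of build GRCm38.p6. It was held by 7.13% of all 32851 promoters and by 22 of the 49 promoters matched to the interferon-stimulated list used below (42 of its 54 genes matched). Among the 10 listed genes within the 15 whose level differed most upward, 8 had a promoter in the table, and the core was found in those of Isg15, Phf11b, Slfn5 and Stat2. Their matches are shown, 5′ to 3′ on the strand of the gene, because these 4 genes are among those that carry the main difference; the core is in capitals, and overlapping matches run together.
Isg15: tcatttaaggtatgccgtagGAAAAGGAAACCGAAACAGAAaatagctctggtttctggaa
Phf11b: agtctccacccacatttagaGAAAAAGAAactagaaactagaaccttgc
Slfn5: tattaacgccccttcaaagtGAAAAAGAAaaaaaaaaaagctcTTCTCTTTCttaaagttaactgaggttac
Stat2: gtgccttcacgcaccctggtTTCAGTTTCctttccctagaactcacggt
The stretch before Isg15, which encodes a ubiquitin-like protein, lies at chr4:156200856-156200916 on the minus strand and holds 3 overlapping matches between 78 and 58 bases before the start. That before Phf11b lies at chr14:59341352-59341400 on the minus strand, with its match 50 to 42 bases before the start. The stretch before Slfn5 is chr11:82951927-82951998 on the plus strand and has 1 match on each strand. The one before Stat2, a subunit of the factor that binds this element, is chr10:128270257-128270305 on the plus strand, and its match is on the opposite strand. The GAS element TTCNNNGAA, bound by dimers of STAT proteins, was in 7.02% of all promoters and in 4 of the 49. These are matches of letters only, and no binding was measured.

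The share of gated monocytes among all cells past the filters was 3.51% in PBS (95% Clopper-Pearson interval 3.08 to 3.97) and 4.75% with cmExoaCD11b (4.27 to 5.27), a ratio of 1.35 (1.15 to 1.60). The size of this ratio was set in part by the rule. When cells rich in C1q transcripts were not left out, it was 1.00, and when only cells with less than 5% S100a8 and S100a9 were counted in the denominator, it was 1.68. The C1q limit alone turned away 116 PBS cells and 32 cmExoaCD11b cells. A gated cell held a median of 7657.5 UMIs in PBS and 7994 in cmExoaCD11b, and the sums over cells rested on 2366259 and 3479342 UMIs. The 15 cell barcodes found in both libraries included none of the gated cells.

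Values of the rule's own genes are a description of the choice. The median gated cell gave 0.213% of its UMIs to the 4 monocyte genes in PBS and 0.255% in cmExoaCD11b. In counts per 1000000 UMIs summed over the gated cells (CPM), Vcan, a matrix proteoglycan, stood at 229 in PBS and 324 in cmExoaCD11b. The level of Ccr2 was 372 and 510 CPM, that of F13a1, the A chain of coagulation factor XIII, 1183 and 917 CPM, and that of Ms4a6c 520 and 1142 CPM. Just inside the limit, between 0.1% and 0.12%, lay 24 PBS and 22 cmExoaCD11b cells, with 232 and 260 CPM of Ly6c2. Just outside it, between 0.08% and 0.1%, lay 50 and 55 cells, with 490 and 303 CPM of Ly6c2, so this gene did not separate the cells on either side of the limit.

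The label was then set against markers that the rule did not use. Ms4a4c stood at 112 CPM in gated PBS cells against 26.7 CPM in C1q-positive macrophages of the same library, and at 553 against 282 CPM in cmExoaCD11b. Saa3, an acute-phase apolipoprotein, stood at 3356 against 599 CPM in cmExoaCD11b. In PBS it was at 1486 against 441 CPM, but 62.1% of its 3516 UMIs came from 5 cells. Ly6c2, which encodes the classical monocyte antigen Ly6C, reached 470 and 1012 CPM in the gated cells against 27.0 and 137 CPM in macrophages, though neutrophils held 730 and 794 CPM. Of the 20 genes that stood furthest above all other cells, with at least 100 CPM, the first were Ms4a8a, Plcb1, Saa3, Ms4a4c and Clec4a3, with mean log2 ratios to the other cells of 3.94, 3.93, 3.8, 3.65 and 3.62. The list also held Fn1, Fcgr1, Cd93, Ms4a6d, Ccl9 and Ccl2, genes of monocytes and young macrophages. Of the 20 genes, 11 were higher than in macrophages in both libraries, and 2 of them, Plcb1 and Saa3, at least 2-fold in both. In cmExoaCD11b 8 of the 20 were lower than in macrophages, among them Fn1 at 541 against 622 CPM and Ccl2 at 533 against 655 CPM. Fcgr1 was lower in both, at 151 against 177 CPM in PBS and 209 against 249 CPM in cmExoaCD11b, as was Ms4a6d, at 314 against 443 and 531 against 569 CPM.

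The gate was not uniform, and its make-up differed between the libraries. Limits chosen after the values had been seen split it, one after another, into cells with at least 2 UMIs of 4 T-cell genes, among them Lck, Skap1 and Trbc2, dividing cells with at least 0.02% Mki67 and Top2a, cells with at least 0.1% of the class II genes, the fourth subset, set by a gene that is not reported here, and cells with at least 0.2% of the neutrophil genes Retnlg, Csf3r and Il1r2. What was left, called the remaining cells, came to 111 of 242 (PBS) and 180 of 338 (cmExoaCD11b). The fourth subset made up 34.7% of the gate in PBS (84 cells, 28.7 to 41.1%) and 7.40% in cmExoaCD11b (25 cells, 4.84 to 10.7%), a ratio of 0.213 (0.131 to 0.336). Dividing cells went the other way, from 18 to 54 cells (ratio 2.15, 1.24 to 3.89), as did cells with T-cell genes, from 5 to 25 (3.58, 1.35 to 12.0). The class II cells were 12 and 21 (1.25, 0.589 to 2.79) and the cells with neutrophil genes 12 and 33 (1.97, 0.991 to 4.19), so that neither interval excluded 1.

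**Figure D1:**
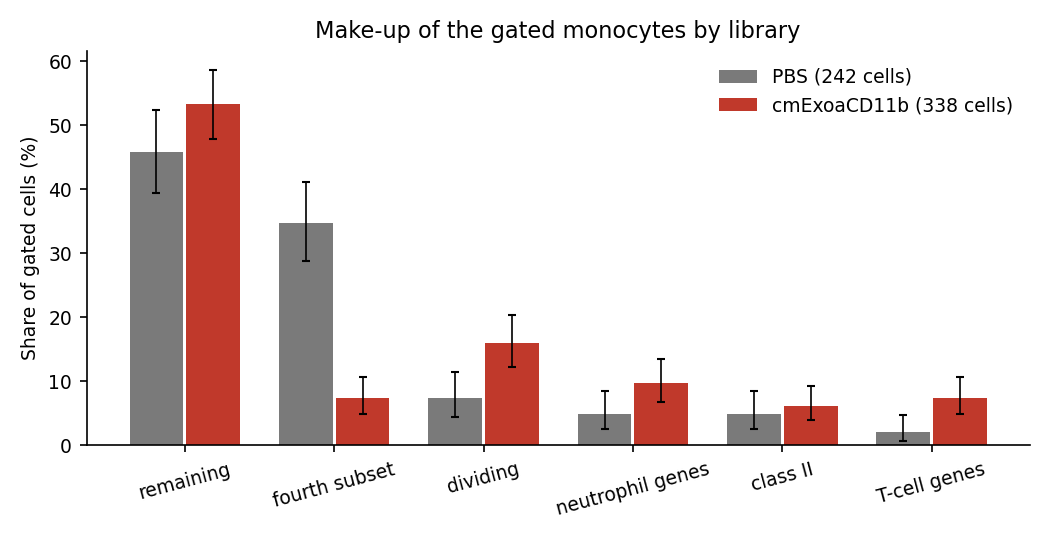
Share of the gated monocytes (%) in each of the 6 subsets, with the PBS library in grey and the cmExoaCD11b library in red; bars are shares and whiskers exact 95% binomial intervals for counting error. The fourth subset takes 34.7% of the PBS gate and 7.40% of the cmExoaCD11b gate, while the remaining cells take 45.9% and 53.3%.

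The label fitted some of these subsets better than others. Among the remaining cells Ly6c2 stood at 736 CPM in PBS and 886 in cmExoaCD11b, and Lyz2, the lysozyme of myeloid cells, at 11979 and 9253 CPM. In the dividing cells Ly6c2 was 953 and 1735 CPM. The fourth subset held only 31.5 and 91.3 CPM of Ly6c2, with 4275 and 1620 CPM of Spp1 (osteopontin) and 13128 and 16382 CPM of the neutrophil-attracting chemokine Cxcl2, and in this it went against the name of monocyte. Ly6c2 was also low in the class II cells, at 94.7 and 172 CPM, and in the PBS cells with neutrophil genes, at 78.6 CPM, against 575 CPM in those of cmExoaCD11b. The dividing cells of cmExoaCD11b also carried 473 CPM of Mpo and 313 CPM of Ms4a3, genes of bone-marrow progenitors, against 29.2 and 8.77 CPM in PBS. Over all gated cells of cmExoaCD11b, 5 cells gave 61.9% of the 548 Mpo UMIs, so its level rests largely on few cells. Because of these differences most of the list counts and many of the genes below are given for all gated cells and again for the remaining cells. Counts and medians in the remaining cells cover the genes with a mean of at least 50 CPM there, so genes found mainly in the cells taken out are not in them.

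Between the libraries, 105 of 3281 genes with a mean of at least 50 CPM were at least 2-fold higher in cmExoaCD11b (3.2% of those tested, with 1 UMI added to each count) and 108 were at least 2-fold lower (3.29%). The median gene had a log2 ratio of 0.09. Among the remaining cells 112 of 3272 genes were at least 2-fold higher (3.42%) but only 32 at least 2-fold lower (0.978%), around a median of 0.01. Of the 105 higher genes, 71 were still at least 2-fold higher in the remaining cells and 96 kept the sign. Of the 108 lower genes, 26 were still at least 2-fold lower, 93 kept the sign and 15 were on the other side of 0. Most of the lower genes thus lay within 2-fold once the other subsets were left out, and most of the higher genes did not.

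**Figure D2:**
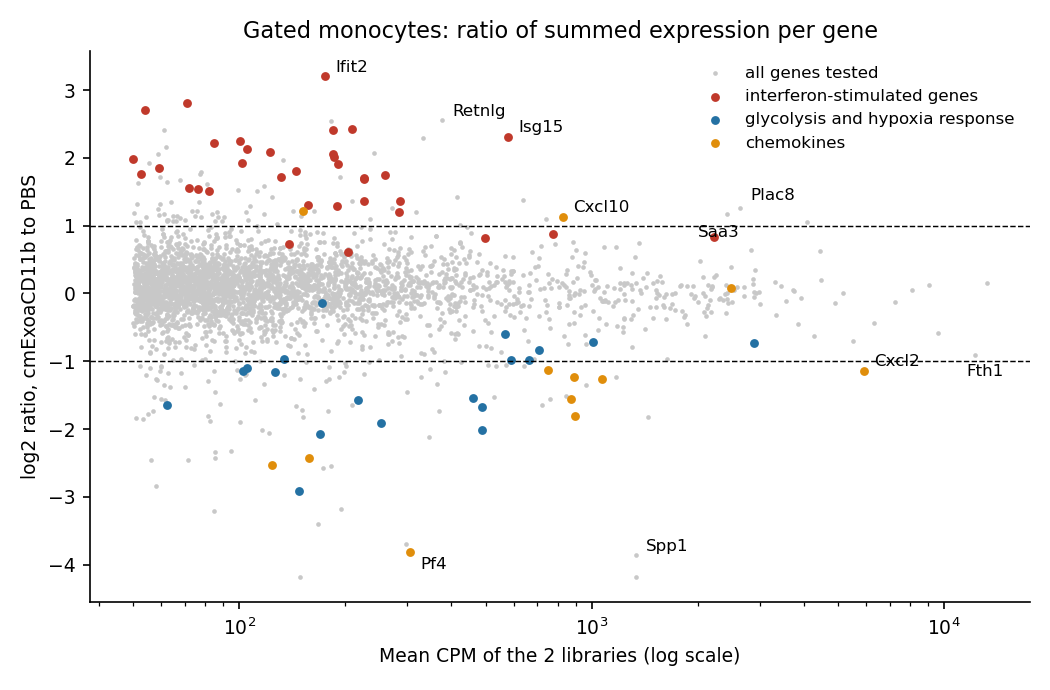
Each point is 1 of the 3281 genes tested in the gated monocytes, placed by the mean CPM of both libraries (horizontal, log scale) and the log2 ratio of cmExoaCD11b to PBS (vertical); dashed lines mark 2-fold. Interferon-stimulated genes (red) lie above 0, and most chemokines (orange) and glycolysis and hypoxia genes (blue) below it.

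Interferon-stimulated genes were the group that stood highest with cmExoaCD11b. Of 35 tested members 30 were at least 2-fold higher and 0 lower, with a median log2 ratio of 1.77 against 0.09 for all genes. For the remaining cells it was 33 of 36, with a median of 2.43. Ifit2, which encodes an RNA-binding antiviral protein, was at 33.8 CPM in PBS and 317 CPM in cmExoaCD11b, a ratio of 9.38 (7.47 to 11.9). The ubiquitin-like modifier Isg15 was at 194 and 966 CPM (4.99, 4.53 to 5.51). Both intervals, which cover counting error only, lie far from 1. Over all gated PBS cells 18 of 242 held Ifit2, and 5 cells gave 73.75% of its 80 UMIs. Both genes had the same direction in the remaining cells, where Ifit2 was at 12.6 and 262 CPM and Isg15 at 128 and 932 CPM. In PBS the 12 Ifit2 UMIs of the remaining cells came from 4 cells, 75% of them from 1, so that the ratio of 20.8 there (11.8 to 40.6) rests on few PBS cells.

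Irf7 and Stat2, transcription factors of the pathway, differed in the same direction. Irf7, which amplifies interferon production, was at 34.7 and 166 CPM (ratio 4.80, 3.81 to 6.13). Stat2 was at 29.6 and 140 CPM (4.72, 3.67 to 6.16). Both lay further apart in the remaining cells, with ratios of 8.56 and 5.72. The interferon-inducible GTPase gene Ifi47 was at 17.3 and 125 CPM (7.20, 5.22 to 10.2), and Ifi209, of the Ifi200 family of nucleic acid sensors, at 65.1 and 352 CPM (5.41, 4.58 to 6.44). The growth-regulating gene Slfn5 was at 58.3 and 311 CPM (5.34, 4.47 to 6.42). Phf11b had 13.9 and 94 CPM (6.74, 4.70 to 9.96), and Parp14, an ADP-ribosyltransferase, 46.1 and 198 CPM (4.29, 3.50 to 5.30). Outside the list, the ring-finger gene Rnf213 was at 52.8 and 310 CPM (5.88, 4.88 to 7.13). The 5 tested members under 2-fold were Ifi27l2a, Slfn1, Rsad2, Ifitm3 and Ly6e, with ratios of 1.53 to 1.83. Rsad2, the antiviral enzyme viperin, stood at 360 and 635 CPM, but at 155 and 639 CPM in the remaining cells (ratio 4.12), and Ifitm3, which blocks viral fusion, at 1597 and 2851 CPM.

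**Figure D3:**
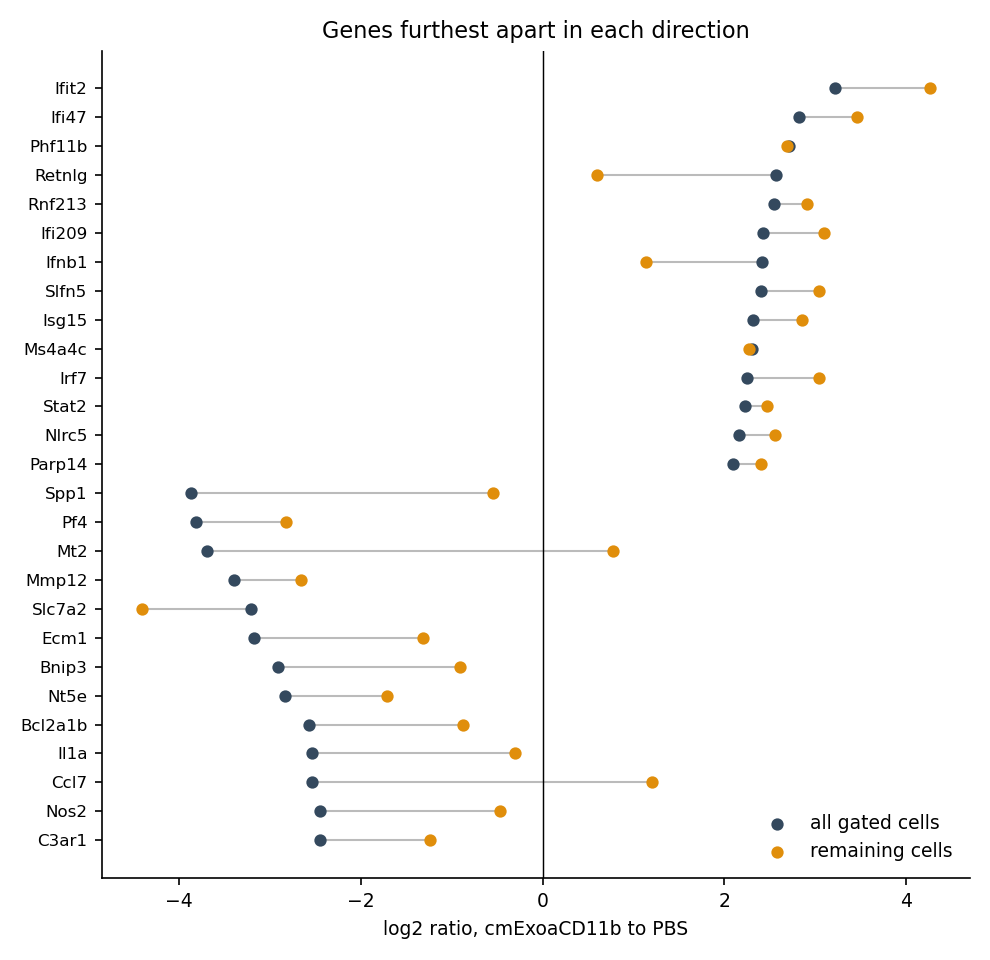
log2 ratio of cmExoaCD11b to PBS for genes among the furthest apart in each direction, in all gated monocytes (dark) and in the remaining cells (orange). The upper genes keep their side in both, whereas Mt2 and Ccl7 cross 0 in the remaining cells.

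The interferon-stimulated transcripts were spread over the cells and were not the output of a few. With each cell thinned to 1000 UMIs, the median PBS cell held 4 UMIs of the 53 matched genes (quartiles 2 to 7) and the median cmExoaCD11b cell 12 (7 to 19). The upper quartile of PBS met the lower quartile of cmExoaCD11b, so the libraries overlapped. Of the gated cells, 19 in PBS (7.85%) and 2 in cmExoaCD11b (0.592%) held none. Every subset shared the direction, with summed levels of 5125 and 17259 CPM in the fourth subset, 5062 and 15200 CPM in the remaining cells, and 3412 and 6663 CPM in the dividing cells. The subset medians ran from a log2 ratio of 0.81 in the cells with neutrophil genes to 2.43 in the remaining cells.

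Other cells of the tumor, gated by their own markers, differed in the same direction by differing amounts. C1q-positive macrophages (305 cells in PBS and 71 in cmExoaCD11b) held a median of 4 UMIs of the list per cell in PBS and 10 in cmExoaCD11b, neutrophils 2 and 6, T cells 5 and 8, and B cells 2 and 4. The median log2 ratio of the tested list members was 1.73 in macrophages, 1.20 in neutrophils, 0.95 in T cells and 0.45 in B cells, while that of all genes lay between -0.10 and 0.14. These medians rest on 40, 15, 34 and 16 tested members, against 35 in the gated monocytes, so the genes behind them differ. By these medians the gated monocytes and the macrophages were near each other, with B cells lowest. By UMIs per cell the order was not the same, as the relative difference was smaller in T cells (5 and 8) than in B cells (2 and 4). These differences between cell types were not tested, since there was 1 library per treatment.

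**Figure D4:**
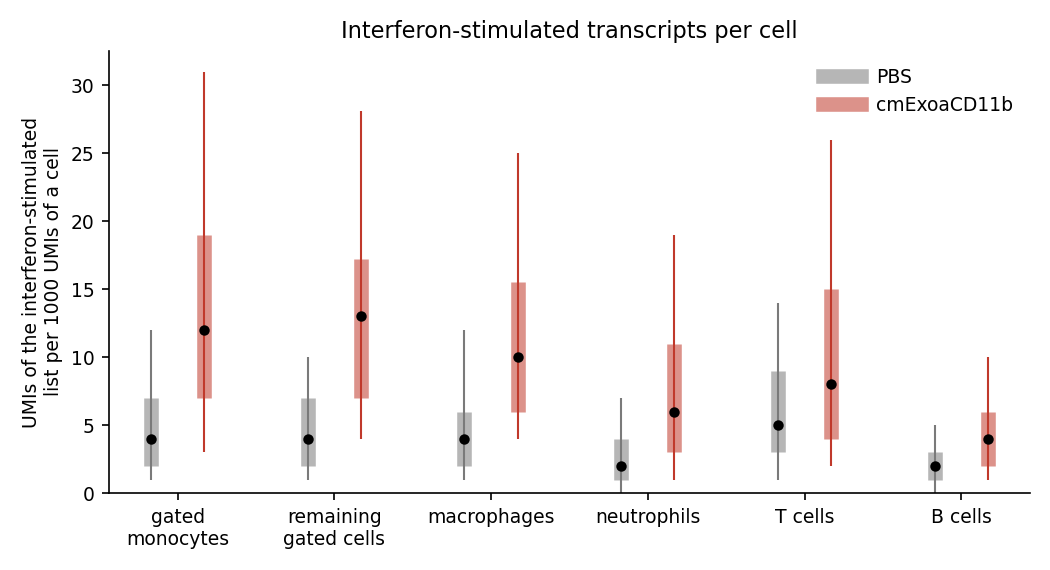
UMIs of the interferon-stimulated list in each cell thinned to 1000 UMIs, by cell type, with PBS in grey and cmExoaCD11b in red; dots are medians, thick bars quartiles and thin lines the 10th to 90th percentiles over cells. The medians are 4 and 12 in the gated monocytes and 2 and 4 in B cells.

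Interferon-beta itself came from few cells. Ifnb1 was at 19.0 CPM in PBS (45 UMIs, in 12 of 242 cells) and 103 CPM in cmExoaCD11b (359 UMIs, in 30 of 338 cells), a ratio of 5.43 (3.97 to 7.57). The cell with most gave 134 of the 359 UMIs, and the 5 cells with most gave 70.8%. Without the 5 highest cells of each library the log2 ratio was 2.47, against 2.41 with them. The level was 23.1 and 52.5 CPM in the remaining cells, and in the class II cells 71.0 and 907 CPM, the latter from 6 cells, of which 1 gave 134 of the 185 UMIs. Of the remaining cells of cmExoaCD11b 1 gave 38 of the 79 UMIs. Macrophages held 52.0 and 171 CPM, T cells 19.7 and 25.6 CPM, neutrophils 3.57 and 6.62 CPM, and B cells 1.13 and 8.06 CPM. In cmExoaCD11b a single cell gave 71 of the 110 UMIs in macrophages and 38 of the 43 in B cells, so the levels of these groups rest largely on 1 cell each. In cmExoaCD11b the 30 cells with Ifnb1 had 1261 CPM of Ifit2 and 4434 CPM of the T-cell attractant Cxcl10, against 200 and 727 CPM in the other 308, and the 12 PBS cells with it had 250 and 2793 CPM against 19.0 and 361 CPM. The cells with Ifnb1 were also deeper, with medians of 13656 UMIs against 7529.5 in cmExoaCD11b and 10672 against 7401.5 in PBS. The part of depth in this was not tested.

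Of 8 tested genes of the STING pathway and of the exosome target and payload, 1 was at least 2-fold higher (Ifnb1) and 1 lower (Itgam), with a median log2 ratio of -0.16. In the remaining cells none of 7 was past 2-fold, with a median of -0.06, but Ifnb1 was not among the 7, since its mean there was under 50 CPM, and its ratio was 2.27 (1.40 to 3.83). The gene of STING, listed under its older symbol Tmem173, was at 24.9 CPM in PBS and 62.9 CPM in cmExoaCD11b (ratio 2.52, 1.89 to 3.43), but at 34.6 and 62.5 CPM in the remaining cells (1.80, 1.20 to 2.77). Cgas, whose product makes cGAMP, was at 12.3 and 40.2 CPM (3.28, 2.19 to 5.08), and at 16.8 and 34.6 CPM in the remaining cells (2.06, 1.16 to 3.86). Irf3, the factor downstream of TBK1, was at 14.4 and 19.5 CPM (1.36, 0.889 to 2.12), an interval that holds 1. All 3 had a mean under the minimum of 50 CPM and were not counted among the tested genes. Tbk1, the kinase downstream of STING, was at 107 and 98.0 CPM (0.917, 0.777 to 1.08), and Ifnar2, a receptor chain for interferon, at 303 and 314 CPM (1.04, 0.945 to 1.14). Neither interval excluded 1. Itgam, which encodes the CD11b that the exosomes were directed to, was at 569 and 281 CPM (0.495, 0.455 to 0.538) in all gated cells and at 423 and 349 CPM in the remaining cells. Its partner Itgb2 was at 175 and 117 CPM. Il12a, a subunit gene of IL-12, had 3 UMIs in PBS and 9 in cmExoaCD11b. The other subunit gene, Il12b, had 36 UMIs in PBS, all in 1 cell, and 1 in cmExoaCD11b, so nothing can be read from it. Reads of the delivered mRNA cannot be told apart from those of the cells' own gene in these counts.

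Genes associated with interferon-gamma lay above the background as well. Of 9 tested, 6 were at least 2-fold higher, with a median log2 ratio of 1.14, and in the remaining cells 7 of 9, with a median of 1.75. Irf1, a transcription factor induced by interferons, was at 90 and 297 CPM (ratio 3.30, 2.84 to 3.84). The guanylate-binding protein gene Gbp5 was at 39.7 and 122 CPM (3.07, 2.45 to 3.89). Cxcl10 was at 517 and 1136 CPM (2.20, 2.06 to 2.35) and reached 435 and 1517 CPM in the remaining cells. There 25 of 111 PBS cells and 80 of 180 cmExoaCD11b cells held a UMI of Cxcl10. In each library 5 cells gave much of it, 70.5% in PBS and 50.9% in cmExoaCD11b. The 1 lower gene in all gated cells was Nos2, inducible nitric oxide synthase, at 121 and 21.8 CPM, which in the remaining cells was at 13.6 and 9.97 CPM. Cxcl9, which like Cxcl10 encodes a ligand of CXCR3, had 14 UMIs in PBS and 2 in cmExoaCD11b. Many of these genes also respond to type I interferon, and the part of each interferon was not tested.

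Antigen presentation through MHC class I differed by less. Of 15 tested genes 3 were at least 2-fold higher, with a median log2 ratio of 0.57 (0.58 in the remaining cells). Nlrc5, the transactivator of class I genes, was at 22.4 and 102 CPM (ratio 4.54, 3.40 to 6.18). The immunoproteasome subunit Psmb9 was at 93.0 and 205 CPM (2.21, 1.90 to 2.58), and Tap1, a chain of the peptide transporter, at 57.5 and 121 CPM (2.10, 1.73 to 2.57). The heavy chains did not move as one. The classical H2-D1 was at 999 and 1030 CPM (1.03, 0.978 to 1.09) and H2-K1 at 860 and 750 CPM (0.872, 0.822 to 0.924). Of the nonclassical ones, H2-T22 was at 51.6 and 82.5 CPM (1.60, 1.29 to 1.99) and H2-T23 at 126 and 177 CPM (1.40, 1.22 to 1.61), while H2-Q7 was at 94.2 and 55.8 CPM (0.592, 0.486 to 0.720) but at 11.5 and 37.2 CPM in the remaining cells. The invariant chain gene Cd74, of class II presentation, was at 496 and 526 CPM, and at 97.6 and 82.4 CPM in the remaining cells.

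Among the monocyte genes that the rule did not use, 6 of 27 tested were at least 2-fold higher and 4 lower, with a median log2 ratio of 0.13. In the remaining cells 4 of 27 were higher and 0 lower, with a median of 0.17. Among the higher ones were Ms4a4c, Plac8, Saa3, Ly6c2 and Ifitm6. Ms4a4c was at 112 and 553 CPM (ratio 4.94, 4.34 to 5.63), with 141 and 683 CPM in the remaining cells. Plac8 was at 1555 and 3711 CPM (2.39, 2.30 to 2.48), but within 2-fold in the remaining cells, at 2445 and 4369 CPM (1.79, 1.70 to 1.87). Ly6c2 was at 470 and 1012 CPM (2.15, 2.01 to 2.31), but in the remaining cells at 736 and 886 CPM, so that its ratio there was 1.20 (1.10 to 1.32). Saa3 went the other way. At 1486 and 3356 CPM (2.26, 2.17 to 2.35) in all gated cells, it was at 524 and 4620 CPM in the remaining cells (8.82, 8.05 to 9.68), where 50 of 111 PBS cells and 131 of 180 cmExoaCD11b cells held a UMI. Its level in the fourth subset was 3382 and 2515 CPM. In PBS 5 cells gave 62.1% of the 3516 UMIs over all gated cells, and 5 gave 40.1% of the 499 in the remaining cells. The level over all gated PBS cells, and with it the ratio of 2.26, thus rests largely on few cells. The PBS level in the fourth subset was not checked without them. The lower genes were Fn1 (fibronectin), Thbs1 (thrombospondin), Ccl9 and Itgam, all closer to equal in the remaining cells. Patrolling monocyte genes were few: of 12, only Nr4a1, Pou2f2 and Itgal passed the minimum, with none past 2-fold, and Ace, Fabp4 and Eno3 had under 10 UMIs in each library.

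**Figure D5:**
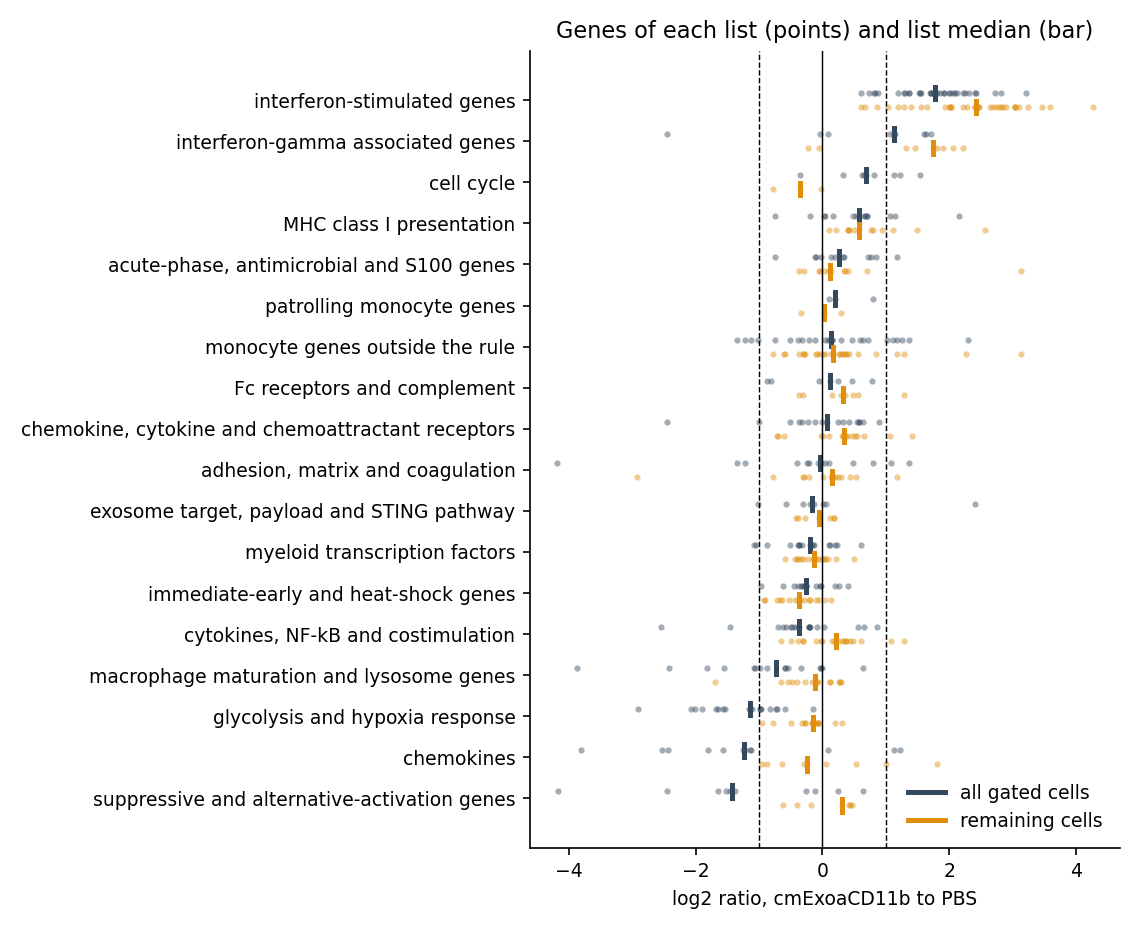
log2 ratio of cmExoaCD11b to PBS for the tested genes of each list (points) and the list median (bars), in all gated monocytes (dark) and in the remaining cells (orange); lists with at least 3 tested genes are shown, and the genes past the minimum can differ between the colors. The interferon-stimulated median is 1.77 and 2.43, and the medians for suppressive genes, chemokines and glycolysis and hypoxia lie near or beyond -1 in all gated cells and near 0 in the remaining cells.

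Genes of suppressive and alternative activation were lower in all gated cells, with 6 of 10 at least 2-fold lower and a median log2 ratio of -1.42. In the remaining cells 7 genes passed the minimum, 0 of them 2-fold lower, with a median of 0.30, but 3 of the 6 lower genes had dropped out. Over the same 10 genes the median there was -0.21. Counts and medians of this list in the remaining cells are set in part by the limit on the fourth subset. The smaller difference there is thus not independent of that limit. Hmox1, heme oxygenase, was at 785 and 274 CPM (ratio 0.348, 0.322 to 0.377), and at 272 and 207 CPM in the remaining cells. The angiogenic factor Vegfa was at 318 and 101 CPM (0.318, 0.280 to 0.362), and at 158 and 103 CPM in the remaining cells. The checkpoint ligand Cd274 (PD-L1) was at 310 and 258 CPM (0.833, 0.755 to 0.920), but in the remaining cells at 190 and 259 CPM. Chil3, a chitinase-like protein of monocytes and neutrophils, was the member furthest the other way among those tested, at 2214 and 3452 CPM (1.56, 1.51 to 1.61).

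Glycolysis and hypoxia-response genes behaved alike. Of 19 tested, 11 were at least 2-fold lower in all gated cells, with a median log2 ratio of -1.14, and 0 of 17 in the remaining cells, with a median of -0.16. Pfkl, a phosphofructokinase gene, was not among the 17, since its mean was under 50 CPM there, but stayed more than 2-fold lower, at 69.3 and 22.6 CPM. The mitophagy receptor gene Bnip3 was at 262 and 34.5 CPM (ratio 0.132, 0.108 to 0.161), and Hilpda, a lipid-droplet protein induced by hypoxia, at 784 and 194 CPM (0.248, 0.226 to 0.271). The glucose transporter Slc2a1 was at 324 and 109 CPM (0.337, 0.297 to 0.382). These 3 genes were at 57.7 and 30.6, 261 and 208, and 115 and 103 CPM in the remaining cells. In PBS the summed level of the list was 19426 CPM in the fourth subset against 6317 CPM in the remaining cells. The list was lower with cmExoaCD11b in each subset. Within the fourth subset it was at 19426 and 11236 CPM, with a median log2 ratio of -0.70, and in the dividing cells at 9464 and 7533 CPM (-0.66). The differences were larger in the class II cells, at 16275 and 4858 CPM (-2.03), in the cells with neutrophil genes, at 16556 and 5562 CPM (-1.38), and in the cells with T-cell genes, at 19339 and 3645 CPM (-2.27, with 5 cells in PBS).

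Chemokine genes were split. Of 12 tested, 9 were at least 2-fold lower and 2 higher in all gated cells, with a median log2 ratio of -1.25, while in the remaining cells 0 of 9 were lower and 2 higher, with a median of -0.24. Over the same 12 genes the median there was -0.09, with 4 at least 2-fold higher and 1 lower. The neutrophil attractant Cxcl2 was the most abundant, at 8140 and 3700 CPM (ratio 0.455, 0.445 to 0.465), and in the remaining cells at 3613 and 3067 CPM. Ccl2, the ligand of CCR2, was at 1250 and 533 CPM (0.426, 0.402 to 0.452) and in the remaining cells at 675 and 701 CPM. Ccl7, another ligand of CCR2, was at 211 and 36.2 CPM, and in the remaining cells the order turned, at 13.6 and 33.2 CPM. The order turned for Cxcl1 too, at 266 and 49.1 CPM in all gated cells and 0 and 30.6 CPM in the remaining cells. Pf4, platelet factor 4, was at 569 and 40.2 CPM (0.0707, 0.0590 to 0.0842), and in the remaining cells, under the minimum and so outside the 9, at 17.8 and 1.99 CPM (0.112, 0.0210 to 0.386). Ccl5, an attractant of T cells, was at 91.3 and 213 CPM (2.33, 2 to 2.72), and Ccl4 was near equal, at 2417 and 2561 CPM (1.06, 1.02 to 1.10). Ccl17 had 72 UMIs in PBS, 98.6% of them in 1 cell, and 0 in cmExoaCD11b.

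Among the macrophage maturation and lysosome genes, 6 of 16 were at least 2-fold lower, with a median log2 ratio of -0.73, and 1 of 15 in the remaining cells, with a median of -0.12. That gene was Apoe, the lipid carrier, at 2247 and 637 CPM in all gated cells (ratio 0.284, 0.270 to 0.298) and 2234 and 693 CPM in the remaining cells. Spp1 was at 2492 and 171 CPM (0.0685, 0.0629 to 0.0745), and at 164 and 112 CPM in the remaining cells. The lysosomal membrane gene Cd63 and the cathepsin genes Ctsl and Ctsd were among the 6, with log2 ratios of -2.42, -1.56 and -1.06. Outside the list, the matrix-degrading elastase Mmp12 was at 306 and 28.7 CPM. Slc7a2, which encodes a transporter of cationic amino acids, was at 153 and 16.4 CPM, and at 84.0 and 3.32 CPM in the remaining cells, where 86.3% of the 80 PBS UMIs came from 1 cell. The receptor gene for complement C3a, C3ar1, was at 95.5 and 17.2 CPM, and at 49.3 and 20.6 CPM in the remaining cells.

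In all gated cells the other lists had smaller median differences than the interferon-stimulated, suppressive, chemokine and glycolysis lists. The interferon-gamma list (1.14) and the macrophage maturation list (-0.73), described above, came next. Among the lists described in this paragraph the cell cycle list stood furthest from the median gene. Of the cytokine, NF-kB and costimulation genes 2 of 19 were at least 2-fold lower, Il1a and Ptgs2, with a median log2 ratio of -0.36, and in the remaining cells none was lower and 2 of 20 were higher. Il1b was at 1377 and 989 CPM and Tnf at 289 and 206 CPM in all gated cells, against 628 and 799 CPM and 139 and 180 CPM in the remaining cells. Of 17 receptor genes 2 were at least 2-fold lower, C3ar1 and C5ar1, the latter at 311 and 155 CPM, while in the remaining cells 2 of 17 were higher, among them the decoy receptor gene Il1r2 at 186 and 499 CPM. Il1r2 and Csf3r, both among the 17, were used to take out the cells with neutrophil genes, so their levels in the remaining cells are set in part by that limit. The adhesion, matrix and coagulation list had 2 of 14 higher, among them Itga4, and 3 lower, among them Fn1 and Thbs1, with 1 higher and 1 lower of 14 in the remaining cells. The acute-phase and S100 list had only Saa3 past 2-fold of 12, and the Fc receptor and complement list none of 7, though Fcgr1, the high-affinity IgG receptor, was at 110 and 270 CPM in the remaining cells. Of the transcription factors 2 of 17 were lower, Bhlhe40 and Id2, and neither was in the remaining cells, while none of the 17 tested immediate-early and heat-shock genes passed 2-fold. In the cell cycle list 3 of 9 were higher, Mki67, Top2a and Rrm2, with a median log2 ratio of 0.69. With the dividing cells and the other subsets taken out, 0 of 3 passed 2-fold, with a median of -0.35. Over the same 9 genes the median there was -0.78, with 2 at least 2-fold lower, Rrm2 at 52.5 and 6.65 CPM and Birc5 at 42.0 and 16.6 CPM, while Mki67 and Top2a are set in part by the limit on dividing cells.

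In the remaining cells the gene furthest down was Mpo, myeloperoxidase, at 341 and 18.6 CPM, but 96.9% of its 325 PBS UMIs came from 1 cell. The next, Ctsg (cathepsin G), had 94.4% of its 214 PBS UMIs in 1 cell. Both are granule genes of progenitors, and each difference rests on a single cell. Besides Apoe, the 15 lowest there held Trf (transferrin), Rgs1 and Pilra. Mcub, Gab1 and Cacna1d, 3 of the 20 genes furthest above all other cells, had ratios of 1.12, 1.21 and 0.721 between the libraries in all gated cells. Macrophages held close to the same of Gab1, at 112 CPM in gated cells against 108 CPM in PBS and 135 against 114 CPM in cmExoaCD11b, and of Cacna1d, at 177 against 162 and 128 against 143 CPM. The most abundant genes were Tmsb4x, Fth1, Malat1, Actb and H3f3b. Of them Fth1, the ferritin heavy chain, differed most, at 15903 and 8494 CPM (ratio 0.534, 0.526 to 0.542), and in the remaining cells it was at 8061 and 8127 CPM.

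Markers of other cells were measured in the gated cells, since a droplet can hold 2 cells or free RNA. Free RNA was estimated at 2.14% of UMIs in PBS and 2.42% in cmExoaCD11b, and its subtraction left a median log2 ratio of 1.78 for the interferon-stimulated list. All 9 listed neutrophil markers were detected in both libraries, summing to 7143 CPM in PBS and 12971 CPM in cmExoaCD11b (5737 and 7209 CPM in the remaining cells), with S100a8 and S100a9 the most abundant. Retnlg, a neutrophil gene and the fourth gene up in all gated cells, was at 108 and 642 CPM but at 68.2 and 104 CPM in the remaining cells, which were selected for little of it. T-cell markers summed to 15.2 and 31.0 CPM and NK-cell markers to 8.03 and 61.2 CPM, and in the remaining cells to 8.40 and 9.97 CPM and to 12.6 and 5.98 CPM, where Trbc2, one of the genes used to take cells out, was at 0 in both libraries. B-cell and plasma-cell markers summed to 163 and 347 CPM, nearly all Igkc at 149 and 320 CPM, while Pax5 and Ly6d were at 0 in PBS and Ms4a1 in cmExoaCD11b, and Igkc stood at 7651 and 15483 CPM in empty droplets. Erythroid markers summed to 4.65 and 38.2 CPM, led by Hbb-bs, and in the remaining cells to 7.35 and 68.5 CPM, where 81.5% of the 65 Hbb-bs UMIs of cmExoaCD11b came from 1 cell. Macrophage markers went the other way, summing to 3359 and 1269 CPM, most of it Apoe, and to 3263 and 1502 CPM in the remaining cells. Markers of neutrophil and monocyte precursors summed to 2105 and 3208 CPM, but to 3019 and 1724 CPM in the remaining cells. The most abundant of them in PBS there, Prtn3, had 57.1% of its 828 PBS UMIs in 1 cell. Epithelial and acinar markers (15.6 and 16.1 CPM), fibroblast markers (6.76 and 1.15 CPM) and endothelial markers (16.5 and 21.0 CPM) were near the floor. The 9 dendritic markers summed to 41.8 and 35.4 CPM, led by Ccr7 in PBS and Flt3 in cmExoaCD11b. In each library 3 of them were at 0, among them Xcr1 and Fscn1 in both. The part of these cells in the differences was not tested, beyond the values given for the remaining cells.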

How the data were processed

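Single cells of K210 tumors were profiled by 10x Genomics 3' droplet sequencing, 1 library per treatment. Unfiltered tables of UMI counts were deposited by the authors, the output of Cell Ranger (7.1.0 in the file headers, an earlier version in the study's methods); the genome build is not given in the sources used here. The libraries held 67143628 (PBS) and 81288480 (cmExoaCD11b) UMIs over 32285 genes. A barcode was counted as a cell from 1000 UMIs and 200 genes up and with no more than 20% mitochondrial UMIs, which left 6904 and 7118. No doublet caller was applied in the reported values. Counts were summed over gated cells and expressed as CPM. Genes with a mean of at least 50 CPM were compared as ratios, with 1 UMI added for log2 ratios. CPM and ratios have exact Poisson-based 95% intervals, and shares Clopper-Pearson intervals. PCR duplicates are removed by the UMIs, so intervals cover the counting of molecules only. Empty droplets were barcodes with up to 100 UMIs. The ratio calculation was tested on simulated data. Named genes were the 15 furthest apart in each direction past 2-fold, the 20 furthest above other cells, the 20 most abundant, and members of the gene lists. The members and lists were chosen with earlier results of these data known. The limits that split the gate, and the comparison within the remaining cells, were chosen after the data were seen. The listed genes Mnda, Sting1, Cxcl11 and Aldoa were not matched by symbol and were not analysed here under those names. Some genes, and the limit that set the fourth subset, are not reported here. Promoters were RefSeq GRCm38.p6. Tools were Python 3.11.15, numpy 2.4.6, scipy 1.17.1, pandas 2.3.3, scanpy 1.11.5 (Scrublet, as an alternative) and matplotlib 3.10.9.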

Additional observations from a re-analysis of the deposited data

How the results depend on the processing

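The direction of the difference held under the planned settings for the 36 genes checked, while the counts of genes and the share of gated cells depended on those settings. Over the planned settings the median log2 ratio of the interferon-stimulated list ran from 1.68 to 1.88. A check covered the 36 genes past 2-fold among those furthest apart in each direction, those furthest above other cells and the most abundant. They kept their sign in all 468 recomputed values and stayed past 2-fold in 461. This count does not cover the other members of the gene lists. Only genes past 2-fold in these same libraries were checked, so a change of sign was unlikely from the start. The share ratio of 1.35 became 1.77 with a limit of 0.2% on the monocyte genes, 1.00 with no limit on C1q genes, and 1.68 with cells low in S100a8 and S100a9 as the denominator. The 105 higher genes became 183 with each cell thinned to 1000 UMIs, 212 with a minimum of 20 CPM and 52 with a minimum of 100 CPM, where the number of genes tested also changed. The 108 lower genes became 184 with a minimum of 20 CPM. With the median log2 ratio set to 0, 91 genes were higher and 122 lower. Taking out the highest Scrublet scores removed 8 of 242 and 13 of 338 gated cells. Among settings chosen after the data were seen, the lower genes became 32 in the remaining cells and 55 without the fourth subset, and the interferon-stimulated median became 2.43 in the remaining cells and 2.14 without the dividing cells. In the remaining cells the median log2 ratio of the suppressive list was 0.30 over the 7 genes past the minimum and -0.21 over the 10 genes tested in all gated cells, so its sign rests on which genes were counted. Both medians are set in part by the limit on the fourth subset. The cell cycle median of 0.69 became -0.78 there over the same 9 genes, and -0.35 over the 3 past the minimum. The log2 ratios of Mt2 and Ccl7 reversed to 0.77 and 1.21, where 69.8% and 80% of the cmExoaCD11b UMIs came from 5 cells. That of Ccl2 became 0.054, a ratio of 1.04 with an interval of 0.941 to 1.15 that holds 1. The cause was not tested. No paired analysis was possible because each treatment was a single library from its own pool of mice, and for the same reason no replicate could be left out.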
